A study of Mus musculus with 93 samples.

Results

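The genes described here encode 10 subunits of the BAF chromatin remodeling complex, out of 24514 gene symbols counted: Smarca2, Smarca4, Smarcb1, Smarcc1, Smarcc2, Smarcd1, Smarcd2, Smarcd3, Arid1a and Arid1b. They were chosen by name, and all 10 were found in the count table. RNA was sequenced from 93 libraries, each made from 10 cells sorted into a well by fluorescence. All cells carried Hcn4-GFP, Tbx1-Cre and Ai9: GFP reports Hcn4, a gene of the first heart field (FHF), and RFP permanently marks cells in which the Tbx1 promoter has driven Cre, a second heart field (SHF) label. In vivo cells came from mouse embryos, given as E7.75 in the protocol and as E8.5 in the sample titles, with 5 GFP libraries and 4 RFP libraries. In vitro cells came from cardiac spheroids on day 5.5 of differentiation, grown from a single embryonic stem cell line of that genotype, with 38 GFP libraries and 46 RFP libraries. The labels do not tie wells to embryos or differentiations, so p-values measure the spread between wells, which may be technical.

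BAF complexes use the energy of ATP to slide or evict nucleosomes and so open DNA to transcription factors. Each complex holds a single ATPase, encoded by Smarca4 (Brg1) or Smarca2 (Brm), around which a core of Smarcb1, Smarcc and Smarcd proteins and an Arid1 subunit assemble. Several positions are filled by alternative paralogs, so the composition can change between cell types. Smarcd3 (Baf60c) is the Smarcd paralog known from the developing heart, where it works with the cardiac transcription factors Gata4, Tbx5 and Nkx2-5.

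Total counts ranged from 712732 to 2525460 in GFP in vivo, from 1246546 to 1479957 in RFP in vivo, from 6288 to 4371849 in GFP in vitro and from 445071 to 5658882 in RFP in vitro. The number of genes detected moved with the group in vivo: 6189 to 8302 in the GFP libraries and 10263 to 13052 in the RFP libraries. Summed cardiomyocyte markers (Myl7, Myl4, Tnnt2, Actc1, Nkx2-5 and Hcn4, 6 of 6 detected) were at 13589 to 39892 CPM (counts per 1000000 of the library total after TMM scaling) in GFP in vivo and 690 to 1512 CPM in RFP in vivo. In GFP in vitro the same sum had a median of 18.8 CPM and in RFP in vitro of 35.1 CPM, and every spheroid library lay below every GFP embryo library. Endoderm markers (Sox17, Foxa2, Apoa1, Ttr, Epcam and Cldn6) reached 8.65 to 648 CPM in RFP in vivo, with 6 of 6 detected, against 0 to 21.4 CPM and 1 of 6 in GFP in vivo. Other sums of 6 markers each, RFP before GFP in vivo, were 18.8 to 306 and 0 to 89.6 CPM (endothelium) and 19.0 to 73.7 and 0 to 7.64 CPM (neural). Blood gave 0 to 1167 and 0 to 2.61 CPM, pluripotency 0 to 78.8 and 0 to 487 CPM. Pharyngeal SHF markers gave 179 to 303 and 58.4 to 287 CPM. Of these sums, only the neural ones did not overlap. The part of cell makeup or genes detected in the results below was not tested. In libraries of pooled cells, fewer cells of a type and less RNA per cell cannot be told apart.

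The means of Smarcd2 and Smarcd3 stood in opposite order in the embryo populations, so the 250 bases before the RefSeq start of each Smarcd gene are shown (GRCm38.p6, 5′ to 3′). Capitals mark matches on either strand to 3 motifs. The first is the GC box, GGGCGG, and the second the half-site of T-box factors, written AGGTGT. The third is AGATAA, a form of the motif of GATA factors.
Smarcd1, chr15:99702037-99702286, plus strand: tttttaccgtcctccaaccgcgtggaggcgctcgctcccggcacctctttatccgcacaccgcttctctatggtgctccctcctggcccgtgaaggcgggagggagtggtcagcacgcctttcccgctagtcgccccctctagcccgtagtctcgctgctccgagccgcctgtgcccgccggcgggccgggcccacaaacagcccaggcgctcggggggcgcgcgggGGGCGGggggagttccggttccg
Smarcd2, chr11:106267633-106267882, minus strand: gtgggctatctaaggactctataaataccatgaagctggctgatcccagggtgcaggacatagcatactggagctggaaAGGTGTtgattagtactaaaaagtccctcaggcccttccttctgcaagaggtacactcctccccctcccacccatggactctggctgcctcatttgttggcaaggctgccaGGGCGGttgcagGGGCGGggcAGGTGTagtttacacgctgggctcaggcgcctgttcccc
Smarcd3, chr5:24602003-24602252, minus strand: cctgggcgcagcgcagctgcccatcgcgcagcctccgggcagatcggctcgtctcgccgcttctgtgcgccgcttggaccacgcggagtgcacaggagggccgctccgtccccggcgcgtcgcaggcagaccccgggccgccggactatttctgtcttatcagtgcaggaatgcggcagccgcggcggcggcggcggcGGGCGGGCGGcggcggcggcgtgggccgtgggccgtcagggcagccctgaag
The windows of Smarcd1 and Smarcd3 were GC-rich, at 71.2% and 76% against a median of 52.4% over 32851 promoters, and held 29 and 38 CpG dinucleotides. That of Smarcd2 had 56.4% GC and 4 CpG. Smarcd2 held 2 matches to AGGTGT, which 11.8% of all promoters hold, and Smarcd3 none. AGATAA, held by 9.99% of promoters, was in none of the 3 windows, and GGGCGG, held by 32.7%, was in all 3. Other forms of the GATA motif were not counted over promoters and are not capitalized. On the opposite strand, the printed window of Smarcd3 holds TGATAA (read as ttatca) and that of Smarcd2 holds AGATAG (read as ctatct). The windows of Smarcd2 and Smarcd3 lie inside the GENCODE spans of those genes, so other starts exist, and a match is not a binding site.

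Smarcd3 had its highest mean in the GFP embryo cells. Its level was 86.3, 65.8, 57.2, 46 and 5.30 CPM in the GFP wells A12, B12, C12, D12 and E12, and 5.16, 7.04, 18.8 and 7.93 CPM in the RFP wells F12, G11, G12 and H11. Of the GFP wells, 4 lay above every RFP well and E12 lay among them, so the groups overlapped. The fitted log2 fold change, RFP minus GFP, was -2.45 (SE 1.17, n = 5 and 4), and it did not pass the test (edgeR quasi-likelihood, Benjamini-Hochberg adjusted p = 0.391). With each embryo library dropped in turn the adjusted p of Smarcd3 ran from 0.187 (without E12) to 0.73 (without G11). An exact 2-sided permutation test of mean log2 CPM gave an unadjusted p = 0.0635, where 0.0159 is the smallest this design allows. This test was added after seeing the data. It gave 0.0159 for Smarca2, Smarcd1 and Smarcd2, a value that only restates that their groups did not overlap. Of the 8503 genes tested, 13.9% did not overlap with RFP higher and 3.58% with GFP higher. The permutation test gave 0.0794 for Smarca4 and 0.238 to 0.937 for the other members, all unadjusted. DESeq2 called the Smarcd3 difference (adjusted p = 0.0173), beside 1936 of 10967 genes. So did 1 edgeR fit over all 4 groups (adjusted p = 0.0177), beside 7115 of 12655 genes. Of the transcript length of Smarcd3 (chr5:24590818-24624411, minus strand, 13 exons), 37% in 5 exons overlaps Chpf2 on the opposite strand, and whether counting used strand is not given in the sources used here. Chpf2 was at a median of 0 CPM in GFP in vivo, with 30.6 CPM in A12, and at 3.55 CPM in RFP in vivo.

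Its partner factors also had their highest medians in the GFP embryo cells. Gata4 had a median of 162 CPM in GFP in vivo and 2.82 CPM in RFP in vivo, Tbx5 of 150 and 0.704 CPM, and Nkx2-5 of 21.8 and 2.48 CPM. Nkx2-5 was at 0 in the GFP wells C12 and E12, below the RFP wells at 0.737 to 4.27 CPM. Well A12, highest in Smarcd3, was the lowest GFP well in Gata4 (24 CPM) and Tbx5 (62.2 CPM). Well E12, lowest in Smarcd3 among GFP wells, had 171 CPM of Gata4 and 150 CPM of Tbx5. In vitro, the Gata4 median was 5.54 CPM in GFP and 3.49 CPM in RFP, and those of Tbx5 and Nkx2-5 were 0 in both populations. Tbx5 was detected in 16 of 38 GFP libraries (mean 1.05 CPM) and in 7 of 46 RFP libraries (mean 0.207 CPM). Nkx2-5 was detected in 2 GFP libraries and 1 RFP library.

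Smarcd2 showed the opposite pattern to Smarcd3. It was at 0 in the GFP wells A12, B12, C12 and E12 and at 0.465 CPM (1 count) in D12, but at 19.9, 14.8, 16.2 and 16.6 CPM in the RFP wells. The groups did not overlap. Summed over libraries, the RFP level was 119.9 times the GFP level, with an exact 95% interval of 21 to 4790 that covers counting error only (90 counts against 1). Smarcd2 was the single member of 10 to pass the test in vivo (edgeR, adjusted p = 0.00876). DESeq2 called 3 members, beside 1936 of 10967 genes, and 1 fit over all 4 groups called 7, beside 7115 of 12655 genes. Smarcd2 was among them each time. RFP-higher calls by edgeR were made for 6.21% and GFP-higher calls for 3.88% of the 8503 genes tested.

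Smarcd1, the third paralog, was at 1.09, 0, 3.73, 13.5 and 17 CPM in the GFP wells A12 to E12 and at 36.1, 43, 23.1 and 62.7 CPM in the RFP wells. Every RFP well lay above every GFP well, but the fitted log2 fold change of 2.46 (SE 1.46) did not pass the test (edgeR adjusted p = 0.526). Per kilobase of transcript, Smarcd3 made up 99.3%, 100%, 96.7%, 86.2% and 37.3% of the summed Smarcd level in the GFP wells. In the RFP wells F12, G11, G12 and H11 the Smarcd3 share was 14.1%, 18.1%, 45.7% and 15.5%. The shares overlapped between the groups through E12, whose 3 Smarcd genes together rest on 21 counts, and G12. In vitro the Smarcd3 share was 9.81% ± 11.2 (SD, n = 37, since well C9 had no Smarcd count) in GFP and 8.32% ± 6.38 (SD, n = 46) in RFP, with Smarcd1 and Smarcd2 making up the rest.

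**Figure D1:**
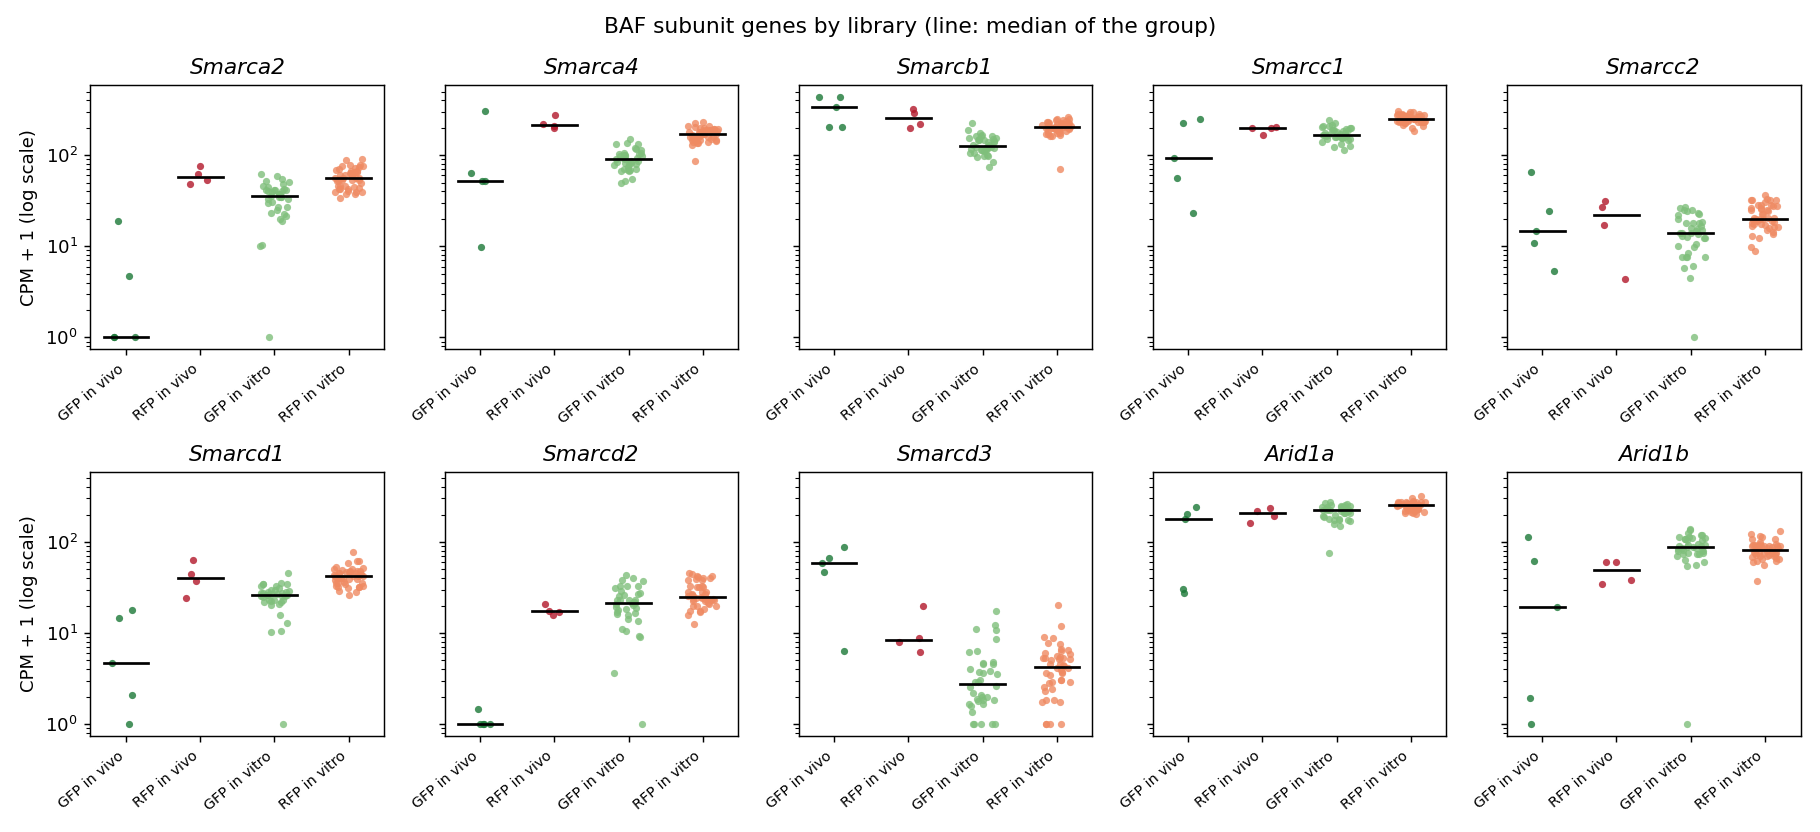
Level of each BAF subunit gene in each library (CPM + 1, log axis) by group, with the group median as a line. Smarcd3 stands at 46 to 86.3 CPM in 4 of 5 GFP in vivo libraries, while Smarcd2 and Smarca2 are at or near 0 in most of them.

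**Figure D2:**
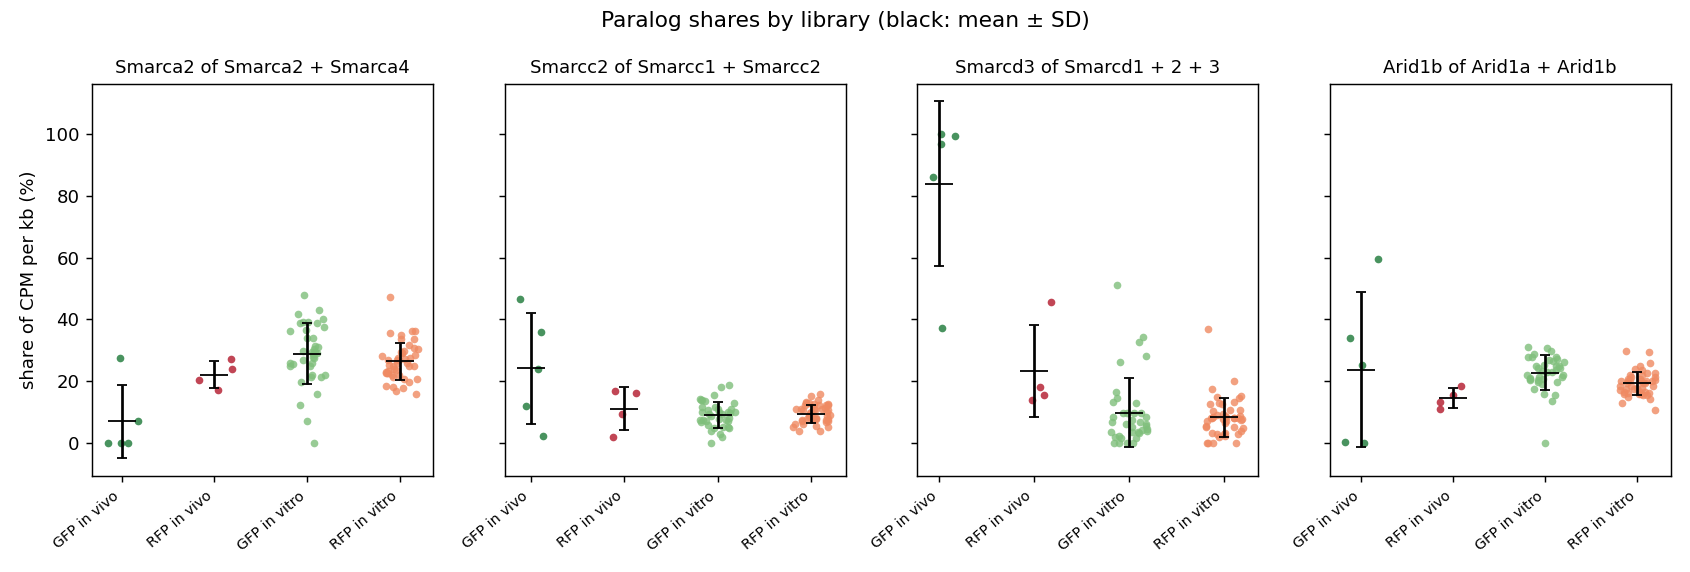
Share of the level per kilobase (%) taken by Smarca2, Smarcc2, Smarcd3 and Arid1b within their paralog sets, 1 point per library, with the mean and SD in black. The Smarcd3 share averages 83.9% in GFP in vivo and 8.32% to 23.3% in the other groups.

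Of the ATPases, Smarca2 did not overlap between the embryo populations and Smarca4 did, and neither passed the test. Smarca2 was at 0 in the GFP wells A12, C12 and E12, at 17.9 CPM in B12 and at 3.72 CPM in D12, against 61.1, 75.3, 47.0 and 52.6 CPM in the RFP wells. The groups did not overlap, yet the log2 fold change of 3.68 (SE 1.58) did not pass the test (edgeR adjusted p = 0.292). Without well B12, the highest GFP well, it was called (adjusted p = 0.0576), and DESeq2 called it with all wells (adjusted p = 0.0555). Smarca4 was at 301, 50.5, 8.71, 51.6 and 62.5 CPM in the GFP wells and at 208, 218, 199 and 277 CPM in the RFP wells. The RFP wells lay above all GFP wells but A12, which was the highest of all 9. Without A12 the difference was called (log2 fold change 2.31, adjusted p = 0.032, against 1.23 and 0.526 with it). For both ATPases the well left out was the GFP well with the highest level. That widens the difference by construction, so these calls add no support. Smarca2, Smarcd1 and Smarcd2 were the 3 of 10 members whose RFP wells lay wholly above the GFP wells, a pattern found in 13.9% of all genes tested, and no member showed the reverse, found in 3.58%.

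Apart from Smarcd2, the edgeR test in vivo called no core or Arid1 subunit. The 1 fit over all 4 groups called Smarcc1 (adjusted p = 0.0279) and Arid1a (adjusted p = 0.035), beside 7115 of 12655 genes. Smarcb1, the core subunit also known as Snf5, was at 203 to 435 CPM in GFP and 197 to 323 CPM in RFP, and its log2 fold change was -0.38 (SE 0.34, adjusted p = 0.749). Smarcc1 (Baf155), a scaffold subunit, ranged from 22.4 to 250 CPM over the GFP wells but only from 164 to 205 CPM over the RFP wells. Its paralog Smarcc2 ranged from 4.37 to 64.0 CPM and from 3.42 to 30.2 CPM. Arid1a, a DNA-binding subunit, was at 26.2 to 240 CPM in GFP and 160 to 232 CPM in RFP, and Arid1b at 0 to 112 CPM and 33.9 to 59.8 CPM. The log2 fold changes of Smarcc1, Smarcc2, Arid1a and Arid1b were 0.55, -0.33, 0.52 and 0.26 with SEs of 0.62, 1.29, 0.65 and 1.43. Across members with a mean of at least 5 CPM, the median coefficient of variation was 91.2% in GFP in vivo (8 members) and 21.8% in RFP in vivo (10 members), beside 106% and 38.7% over all such genes. The cut left out Smarca2 (179%) and Smarcd2 (224%) in GFP only, so the medians cover different members. GFP wells lay in plate rows A to E and RFP wells in rows F to H, so row and population cannot be told apart in vivo.

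In spheroids, most subunit genes were modestly higher in RFP cells. Of the 9 members tested, 8 rose and 1 fell in RFP relative to GFP. RFP-higher calls were made for 37.8% and GFP-higher calls for 40.1% of the 9940 genes tested, and the median log2 fold change was 0.52 over the members against -0.02 over all genes. Smarca4 showed the largest rise: its GFP libraries ran from 48.4 to 148 CPM with a median of 90.4 CPM, its RFP libraries from 85.6 to 228 CPM with a median of 170 CPM, and the log2 fold change was 0.88 (SE 0.06, edgeR adjusted p = 9.93e-23). The GFP maximum is well C9, with 2 Smarca4 counts, and the next library was at 136 CPM. The ranges overlapped, as they did for every member. Markers of other cells moved with the populations: the endoderm sum ran from 175 to 517 CPM in GFP and from 18.1 to 182 CPM in RFP, and the sum of pluripotency markers (Pou5f1, Nanog, Dppa5a, Zfp42, Esrrb and Tdgf1) from 35 to 1637 CPM in GFP and from 4.19 to 563 CPM in RFP, with 6 of 6 markers of each list detected in both. Their part in the result was not tested.

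Smarcd1 rose by 0.68 (SE 0.09) on the log2 scale, from a median of 25.1 to 41.4 CPM, and Smarca2 by 0.63 (SE 0.10), from 35.1 to 54.9 CPM. Smarcb1, Smarcc2 and Smarcc1 rose by 0.57 (SE 0.06), 0.52 (SE 0.13) and 0.51 (SE 0.04). These 3 are core and scaffold subunits. Smarcd2 rose by 0.25 (SE 0.12, adjusted p = 0.0562) and Arid1a by 0.15 (SE 0.04, adjusted p = 0.000635). Arid1b fell by 0.19 (SE 0.07, adjusted p = 0.0126), but with the gene length trend of each library taken out its sign turned (0.07, adjusted p = 0.373), and it was not called without the filter or in 1 fit over all 4 groups. The smallest GFP library, well C9 with 6288 counts, also gave the zeros of Smarca2, Smarcc2, Smarcd1, Smarcd2 and Arid1b. In vitro, GFP and RFP wells filled different plate columns, so an effect of the column cannot be told apart from that of the population.

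Smarcd3 was too low in spheroids for the filter on low counts. It was detected in 33 of 38 GFP libraries (0 to 16.6 CPM, median 1.78) and 42 of 46 RFP libraries (0 to 19.4 CPM, median 3.26). The difference in mean log2 CPM was 0.37, RFP minus GFP (permutation test with 100000 resamples, 2-sided, unadjusted p = 0.0814). Over the 38 GFP libraries, the genes whose levels ran most like Smarcd3 were Ssr1, Epb41l3, Btbd9, Map2k1 and Cdk6, with Spearman rho of 0.60, 0.59, 0.58, 0.55 and 0.54 among 6942 genes. These are descriptions of sparse counts in libraries that differ in depth. Over the same 38 libraries, Smarcd3 had a Spearman rho of 0.05 with log10 total counts.

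**Figure D3:**
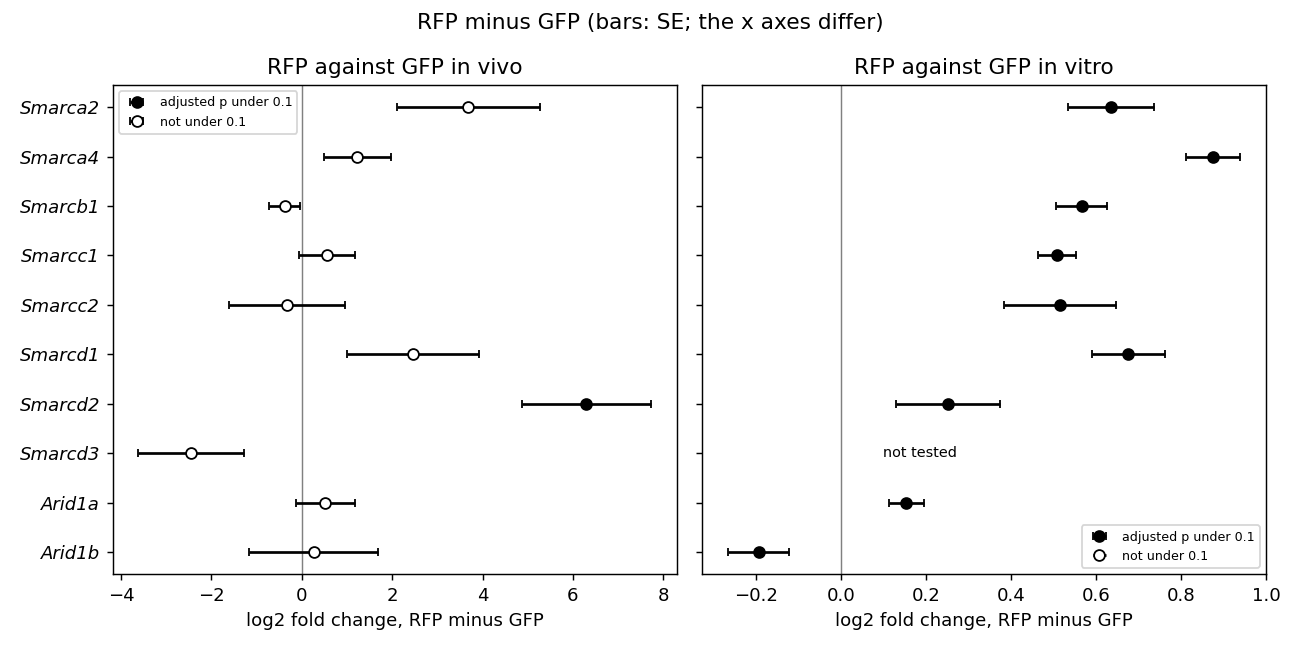
Log2 fold change, RFP minus GFP, of each member in vivo (left) and in vitro (right) with its SE; filled points passed an adjusted p under 0.1, and the x axes differ. Smarcd2 is the single filled point in vivo, and all 9 tested members are filled in vitro, 8 of them to the right of 0.

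The population effect itself was then compared between spheroids and embryos. Smarcd2 was the only member of 9 tested whose effect differed (difference -6.05, in vitro minus in vivo, SE 1.43, adjusted p = 0.0801), beside 5.68% of the 8182 genes tested. The call was lost without RFP well F12, G11 or H11 (adjusted p of 0.12, 0.151 and 0.123), and its size rests on the 1 Smarcd2 count in GFP in vivo. For Smarca2 the difference was -3.04 (SE 1.59, adjusted p = 0.541) and for Smarcb1 0.95 (SE 0.34, adjusted p = 0.279), neither past the test. Smarcd3 was not among the 9 members tested, because the filter on low counts left it out in vitro. The interaction term in 1 fit over all 4 groups called 5 members, beside 6889 of 12655 genes.

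Between spheroid and embryo GFP cells, edgeR called 8 of the 10 members, 6 higher and 2 lower in vitro, beside 8036 of all 11822 genes tested. In vitro-higher calls were made for 48.3% and in vitro-lower calls for 19.7% of the 11822 genes tested, and the median of all genes was itself shifted by 0.67 on the log2 scale. Beside the drop of cardiomyocyte markers, the endoderm sum had a median of 0 CPM in the embryo GFP libraries (Sox17, Foxa2, Ttr, Epcam and Cldn6 at 0) and 278 CPM in spheroids. The pluripotency sum had a median of 0 CPM (Pou5f1, Dppa5a, Zfp42 and Esrrb at 0, highest library 487 CPM) and 150 CPM, and the part of these markers was not tested. Smarcd3 fell by 3.90 (SE 0.65, edgeR adjusted p = 4.62e-09), from a mean of 52.1 ± 30 CPM (SD, n = 5) to 2.99 ± 3.65 CPM (SD, n = 38). Smarcb1 fell by 1.11 (SE 0.17, adjusted p = 2.95e-08), from a mean of 323 to 131 CPM. Smarcd2 rose from 1 count in all to a mean of 21 ± 9.80 CPM, 160 times the summed embryo level with an exact 95% interval of 28.7 to 6327 for counting error only (edgeR adjusted p = 5.44e-12). Smarca2 rose by 2.91 (SE 0.47) and Smarcd1 by 1.99 (SE 0.40). Arid1b rose by 1.35 (SE 0.38), Arid1a by 0.82 (SE 0.23) and Smarcc1 by 0.59 (SE 0.22). Against the shift of all genes, Smarcc1 and Arid1a stood at -0.07 and 0.15, and neither was called with DESeq2's size factors, which put the median of all genes at 0.22. That scaling turned the split of all calls from 5710 higher and 2326 lower to 4687 and 3473.

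In RFP cells, 7 of the 10 members differed between spheroids and embryos by edgeR, by 0.30 to 1.37 on the log2 scale in size. In vitro-higher calls were made for 22.5% and in vitro-lower calls for 20.1% of 11147 genes. Arid1b rose by 0.78 (SE 0.18), Smarcd2 by 0.65 (SE 0.25), Smarcc1 by 0.40 (SE 0.09) and Arid1a by 0.30 (SE 0.09). Smarcd3 fell by 1.37 (SE 0.60, adjusted p = 0.0417), Smarca4 by 0.42 (SE 0.12) and Smarcb1 by 0.34 (SE 0.12). In 1 fit over all 4 groups the calls of Smarca4, Smarcb1, Smarcd2 and Arid1a were lost (adjusted p of 0.174, 0.107, 0.147 and 0.224), and those of Smarcc1, Smarcd3 and Arid1b were kept. Endoderm markers had a median sum of 324 CPM in RFP in vivo and 97.0 CPM in RFP in vitro, and pluripotency markers of 19.0 and 36.3 CPM. The fall of Smarcd3 rests on RFP well G12, without which it was -0.84 (adjusted p = 0.361). Smarca2, Smarcc2 and Smarcd1 gave -0.09, 0.11 and 0.00 with SEs of 0.19, 0.29 and 0.19. The GFP and RFP comparisons share no libraries, but each rests on 4 or 5 embryo wells. Within each population, embryo and spheroid wells filled different plate columns, so column and source cannot be told apart.

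**Figure D4:**
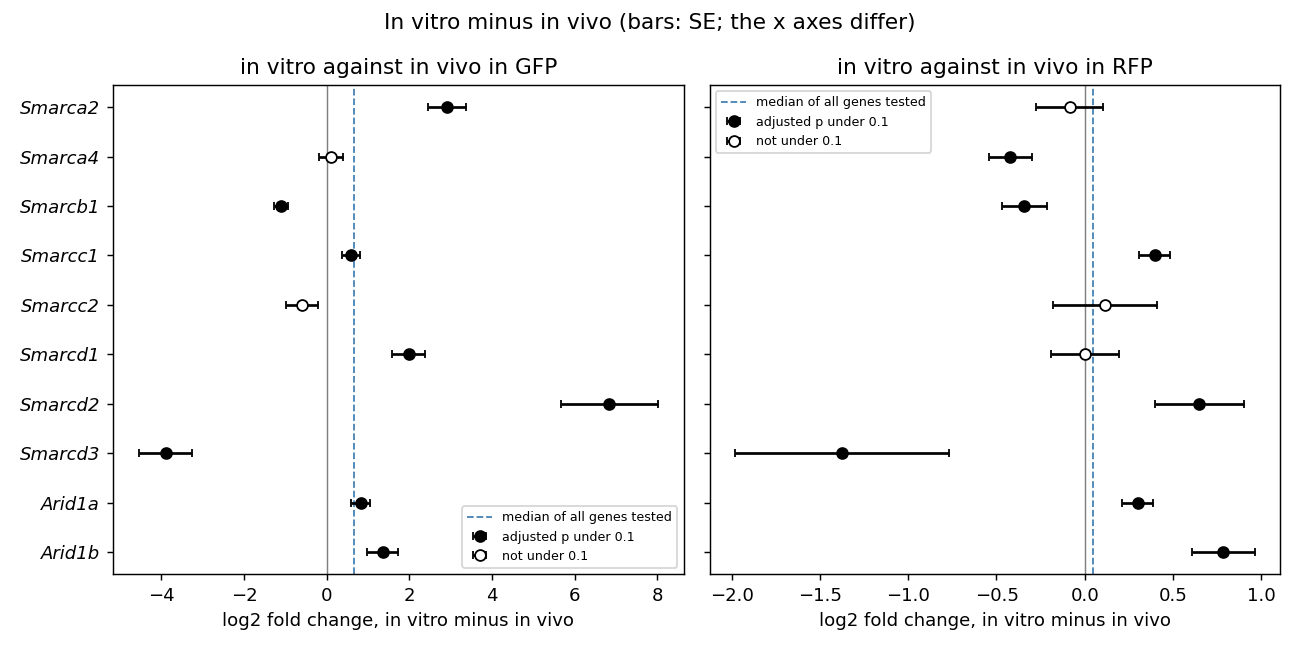
Log2 fold change, in vitro minus in vivo, of each member in GFP (left) and RFP cells (right) with its SE; filled points passed an adjusted p under 0.1, the dashed line is the median of all genes tested, and the x axes differ. Smarcd3 lies furthest to the left in both, at -3.90 and -1.37.

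Ordered by mean CPM over the 4 groups, Smarcd3 ran from GFP in vivo (52.1) to RFP in vivo (9.73), RFP in vitro (3.73) and GFP in vitro (2.99), and the neighbours among the last 3 groups differed by less than the larger of their SDs. Smarcd2 ran the other way, from RFP in vitro (26.6) through GFP in vitro (21) and RFP in vivo (16.9) to GFP in vivo (0.0929), where only the last step exceeded the larger SD. For Smarcc2 and Arid1a no step exceeded it. Per kilobase of transcript, Smarcb1 was the highest of the 10 members in every group, at 195 ± 69.7 CPM per kilobase in GFP in vivo and 79.2 ± 18.4 in GFP in vitro. Smarcd3 ranked second in GFP in vivo, at 30 ± 17.3 CPM per kilobase, and last in both spheroid groups, at 1.72 ± 2.10 in GFP and 2.15 ± 1.91 in RFP.

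Other BAF genes, from a list of 21, were called by edgeR in vivo as follows: of 14 tested, 2 rose in RFP and none fell, beside 6.21% and 3.88% of all genes. Phf10, a subunit of the PBAF form of the complex, was at 0 to 1.24 CPM in GFP and 20.5 to 50 CPM in RFP, 121 times higher over summed libraries with an exact 95% interval of 33.1 to 1009 for counting error only (adjusted p = 0.0347). Actb, the actin that BAF shares with the cytoskeleton, rose by 0.59 (SE 0.19, adjusted p = 0.0798). In vitro 8 of 14 rose in RFP and 3 fell, beside 37.8% and 40.1% of all genes. Brd9, Smarce1 and Arid2 rose by 0.47 (SE 0.08), 0.36 (SE 0.04) and 0.36 (SE 0.06). Gltscr1l, Bcl7b and Brd7 fell by 0.57 (SE 0.19), 0.29 (SE 0.12) and 0.24 (SE 0.06).

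Between sources, 7 of 18 other BAF genes tested rose and 3 fell in GFP spheroid cells, beside 48.3% and 19.7% of all genes. Phf10 rose 104 times over its 2 embryo counts (exact 95% interval 28.8 to 859), Gltscr1l was at least 32.4-fold and Bcl11a at least 18.9-fold higher, both with 0 counts in the embryo GFP libraries and a floor of 3 counts over the group. Dpf3, whose protein reads histone marks in heart and muscle, fell by 1.74 (SE 0.70), Ss18 by 0.89 (SE 0.18) and Arid2 by 0.55 (SE 0.21). In RFP cells 2 of 18 fell, Actb by 0.28 (SE 0.07) and Smarce1 by 0.26 (SE 0.10), and none rose, beside 20.1% and 22.5% of all genes.

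Of 19 ATPases of other remodeler families, edgeR called 0 in vivo, with 2 at an unadjusted p under 0.05. DESeq2 called 3, beside 1936 of 10967 genes. In vitro 7 rose and 8 fell in RFP, shares near the 37.8% and 40.1% of all genes. Chd7, a CHD remodeler needed in heart development, rose by 0.80 (SE 0.06), Smarca1 by 0.55 (SE 0.12) and Hells by 0.47 (SE 0.06), while Chd9, Chd2 and Shprh fell by 1.20 (SE 0.11), 0.82 (SE 0.07) and 0.47 (SE 0.09). In GFP cells 6 rose and 3 fell in spheroids, beside 48.3% and 19.7% of all genes. Srcap, Ino80 and Smarca5 rose by 2.04 (SE 0.43), 1.59 (SE 0.38) and 1.53 (SE 0.25), and Smarca1, an ISWI ATPase, fell by 2.49 (SE 0.40), Smarcad1 by 0.59 (SE 0.19) and Chd2 by 0.43 (SE 0.21). In RFP cells 7 rose and none fell, beside 22.5% and 20.1% of all genes, led by Hltf (1.29, SE 0.27), Smarca1 (1.04, SE 0.28) and Atrx (0.93, SE 0.11). The population effect differed between sources for 0 genes of either list (edgeR), with 2 of 13 other BAF genes and 1 of 19 ATPases at an unadjusted p under 0.05. The interaction term in 1 fit over all 4 groups called 12 and 13, beside 6889 of 12655 genes.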

How the data were processed

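Per the labels and the study's methods, the authors trimmed reads with Trimmomatic 0.36, aligned them to mm10 with HISAT2 2.0.4 and deposited raw counts per gene from featureCounts 1.5.2. The annotation and strand setting are not given in the sources used here. Groups were taken from the sample titles. The members and gene lists were chosen with earlier results of these data known. Each pair of groups was fitted with edgeR 4.0.16 (R 4.3.3; filterByExpr, TMM, quasi-likelihood F test), with Benjamini-Hochberg adjustment over all genes and calls at an adjusted p under 0.1. The difference of effects was tested as the difference of both log2 fold changes over its SE, with 7 degrees of freedom. Levels are CPM on TMM-scaled totals over all 93 libraries, divided by the longest coding transcript (GENCODE M21) where given per kilobase. Named genes were the 10 members, up to 3 called genes per direction and list with the largest change, and the 5 most like Smarcd3. DESeq2 1.42.0 was an alternative. Scripts were tested on simulated data. Of the RFP in vitro wells, 7 pairs were close (r of 0.976 to 0.994) but differed beyond sampling noise and were kept apart. Low library totals limit precision: 1 count in a library of 1000000 is 1 CPM before TMM scaling. The exact permutation test of all members in vivo was added after seeing the data.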

Additional observations from a re-analysis of the deposited data

Results flagged for a closer look

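In GFP in vivo, 3 members had a highest library far from the other 4, out of 20 groups of 4 or 5 libraries examined, where chance marks about 1 in 20 for values without ties. Smarca4 stood at 301 CPM in well A12, against 8.71 to 62.5 CPM in the others. Smarca2 stood at 17.9 CPM in well B12, against 0 to 3.72 CPM. Smarcd2 stood at 0.465 CPM in well D12, a single count against 0 in the other wells, which is always marked. The population effect of Smarcd2 differed between sources, by -6.05 on the log2 scale, in vitro minus in vivo (SE 1.43, edgeR fits, adjusted p = 0.0801), a size that rests on that single count.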

How the results depend on the processing

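In vivo, the edgeR fit called 1 member. DESeq2 called 3 (Smarca2, Smarcd2 and Smarcd3), beside 1936 of 10967 genes. The 1 fit over all 4 groups called 7, beside 7115 of 12655 genes. Fits with each library left out in turn called 1 to 2. Smarcd2 was called under each alternative run. For RFP cells between sources, 1 fit over all 4 groups called 3 members against 7, beside 3358 of 12655 genes against 4745 of 11147. The difference of the population effect was called for 1 member, for 0 at an adjusted p under 0.05 and for 0 without the filter. It was called for 0 to 1 with each in vivo library left out. The interaction term in 1 fit over all 4 groups called 5, beside 6889 of 12655 genes. In vitro, the count of 9 stayed at 8 or 9, and in GFP cells between sources the count of 8 stayed at 7 to 10.

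Signs turned for the members below, and no turned value was called. Taking out the gene length trend gave 0.064 for Smarcc2 in vivo and 0.072 for Arid1b in vitro. In GFP cells between sources, Smarca4 was -0.32 with DESeq2, -0.32 with its size factors in edgeR and -0.069 in 1 fit over all 4 groups. In RFP cells between sources, Smarcd1 was -0.033 with DESeq2, -0.028 with its size factors, -0.015 with a mean of at least 5 CPM, -0.023 with in vitro libraries of at least 1000000 counts and -0.021 with the 7 close pairs summed. With each embryo library dropped in turn, the values were, for RFP against GFP in vivo, -0.63 to 0.52 for Smarcc2 and -0.065 to 1.20 for Arid1b. In GFP cells between sources it gave -0.21 to 1.13 for Smarca4 (called without A12) and -0.91 to 0.25 for Smarcc2 (called as lower without A12, C12 or E12). In RFP cells between sources it gave -0.17 to 0.056 for Smarca2, -0.22 to 0.42 for Smarcc2 and -0.18 to 0.28 for Smarcd1. For the difference of effects it gave -0.40 to 0.23 for Smarcc1 and -0.0012 to 1.15 for Smarcc2. The cause was not tested.

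No paired analysis was possible because replicate numbers only follow accession order and no label ties a GFP well to an RFP well. Spheroid wells of both populations carry the same row letters, several wells to a letter, but the labels name no plate. With plate row as a covariate the members called stayed at 9 in vitro, 8 in GFP cells between sources and 7 in RFP cells between sources. With 5 and 4 wells in vivo, differences as wide as those of Smarca2 and Smarcd3 did not pass the edgeR test, and levels near 1 CPM rest on a few counts.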
